A study of Macaca mulatta with 21 samples.

Results

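The integrin and laminin genes of the rhesus macaque were read on Affymetrix rhesus arrays in 6 pluripotent stem cell lines and in skin fibroblasts. Members were every gene whose symbol in the array annotation named an integrin alpha chain, an integrin beta chain from ITGB1 to ITGB8 or a laminin chain, each read from its brightest probe set, the one with the highest mean over all arrays. The rule found 29 members among the 14133 genes with a named probe set: 12 integrin alpha chains, 8 integrin beta chains and 9 laminin chains. Of 38 genes of these families in the RefSeq gene table, 9 had no probe set named for them alone and were not analysed here. They were 6 integrin alpha chains, ITGA5 among them, and 3 laminin chains, LAMA5 among them.

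Each of the 7 lines was measured on 3 arrays, A, B and C, which the labels call biological replicates. The embryonic line ORMES23 is male and was derived after in vitro fertilization, at the blastocyst stage. Nuclear transfer from somatic cells gave the cloned blastocysts behind the embryonic lines CRES-1, which is male, and CRES-3, which is female. The induced lines were reprogrammed by retroviral OCT4, SOX2, KLF4 and cMYC from fibroblasts: RiPS1 from male fetal skin, RiPS2 from a female adult aged 10 years and RiPS3 from a female adult aged 8 years. Unreprogrammed fibroblasts, the somatic group, were grown from a skin biopsy of an adult female aged 8 years. Mitotically inactivated mouse embryonic fibroblast feeders were present for every line, the skin fibroblasts included, but the medium and the harvest differed: pluripotent colonies were picked by hand from DMEM/F12 cultures, and fibroblasts grown in DMEM were trypsinized. Each line is a single derivation, so every test below speaks for these lines alone, and its p-value measures only the spread between arrays of the same lines.

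Integrins are receptors of paired alpha and beta chains that tie the cytoskeleton to the matrix outside the cell, and the alpha chain largely sets which ligand is bound. Laminins are trimers of an alpha, a beta and a gamma chain and form the scaffold of basement membranes, the sheets on which epithelia and early embryonic tissue rest. ITGA3, ITGA6 and ITGA7 pair with ITGB1 into laminin receptors, ITGA1, ITGA2 and ITGA11 pair with ITGB1 into collagen receptors, and ITGAV and ITGA8 belong to receptors for RGD-bearing ligands such as vitronectin and fibronectin. Human pluripotent cells are known to attach to laminin through ITGA6 with ITGB1.

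All values are log2 intensities, and a value under 5 lies near the background of the array. The array medians lay between 4.98 and 5.14. Levels of different genes were not set against each other, because each probe set has its own brightness. A member was called when the adjusted p of limma, corrected over all 11143 genes tested, was under 0.05 and the difference was at least 2-fold. Testing needed a level of 5 or more on at least 3 arrays. Of the members, 28 passed; ITGAD, a leukocyte integrin chain, stayed between 3.91 and 4.57 on all 21 arrays and was not tested. The labels of the lines were checked against marker genes: all 7 tested pluripotency markers rose and 8 of 9 fibroblast markers fell in the mean of the pluripotent lines. LUM, PRRX1 and FAP, which mark fibroblasts, averaged under 5 in each pluripotent line. The 7 pluripotency markers averaged under 5 in the fibroblasts, so they passed the filter only through the lines where they were high. LUM, PRRX1 and FAP likewise passed it through the fibroblasts, where they averaged 10.84, 8.69 and 9.21. The direction of these markers is therefore no separate check of the labels. Fibroblast array A stood apart from arrays B and C for some members: it was the lowest fibroblast array for LAMA4, LAMC1, ITGB1, ITGA6, ITGA1, ITGA11 and ITGA7, and the highest for ITGA2 and ITGB2. Without it 11 members were called in the mean of the pluripotent lines, ITGA7 no longer among them, and the values that moved most are given beside LAMA4 and ITGA7.

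Levels of several laminin and integrin chains differed between the pluripotent lines and the fibroblasts. In the mean of the 6 pluripotent lines against the fibroblasts, 3 members rose (LAMA1, ITGA6 and ITGA7) and 8 fell (LAMA4, LAMB2, LAMC1, ITGA1, ITGA2, ITGA11, ITGB1 and ITGB2). These 11 of 28 tested members were 39.3% of them, where 31.6% of all tested genes were called in the same comparison. Over all genes 17.7% rose and 14% fell. The median difference of the tested members was -0.46, against 0.03 over all genes tested. By family, 5 of 11 integrin alpha chains, 2 of 8 integrin beta chains and 4 of 9 laminin chains were called. The 18 pluripotent arrays and the 3 fibroblast arrays did not overlap for 11 of the tested members, with the pluripotent arrays higher for 2 and the fibroblast arrays higher for 9, where 43.6% of all genes tested did not overlap. Both shares of the members lay close to their background, so the results that follow rest on single members.

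**Figure D1:**
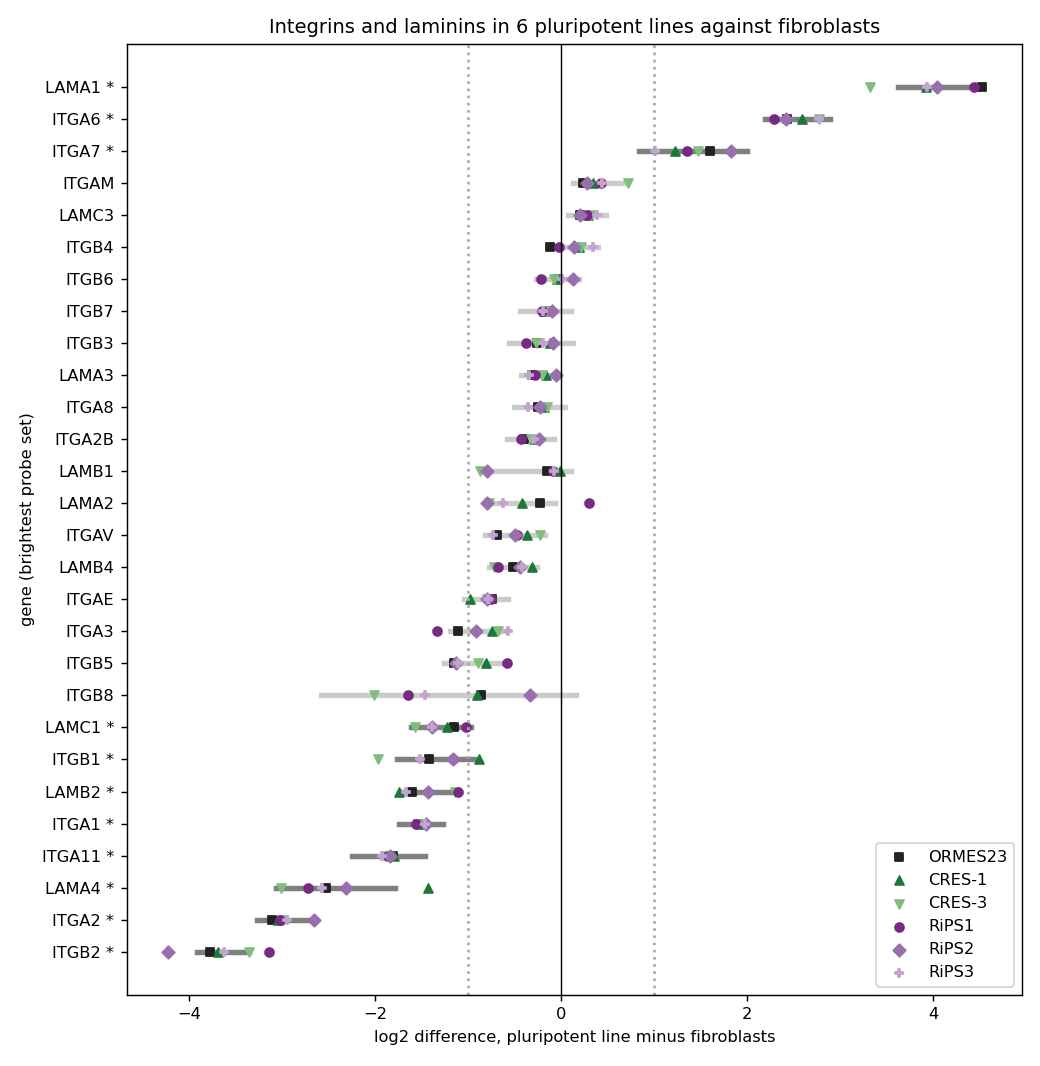
Log2 difference of each of the 28 tested members between a pluripotent line and the fibroblasts (x axis), 1 symbol per line and 1 gene per row; grey bars are 95% confidence intervals of the mean difference of the 6 lines, dark for called members (asterisk), and dotted lines mark a 2-fold difference. LAMA1, ITGA6 and ITGA7 lie to the right of zero in all 6 lines, and LAMA4 and ITGB2 lie to the left in all 6.

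LAMA1, the alpha chain of the laminin that lines the earliest embryonic basement membranes, rose in the pluripotent lines. Its level was 8.63, 8.13 and 8.27 in ORMES23, 7.82, 7.83 and 7.56 in CRES-1, and 7.16, 6.997 and 7.27 in CRES-3. In the induced lines it was 8.70, 7.89 and 8.17 in RiPS1, 7.60, 8.13 and 7.86 in RiPS2, and 7.53, 8.11 and 7.62 in RiPS3. The fibroblast arrays read 3.62, 4.45 and 3.38, all under 5, so every pluripotent array was above every fibroblast array. The mean difference was 4.03 (SE 0.19, limma adjusted p = 2.6e-12). Because the fibroblasts were near background, LAMA1 was at least 7.21-fold higher in the pluripotent lines. LAMA1 was above 5 on the 18 pluripotent arrays alone, so it entered the test only through the group where it was high. Its other probe set was under 5 on all arrays and carried no usable level.

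LAMA4, the alpha chain of laminins made by mesenchymal and vascular cells, went the other way. It read 7.54, 9.76 and 9.24 in the fibroblasts. In the pluripotent lines it was 6.05, 6.49 and 6.43 in ORMES23, 7.58, 7.66 and 7.02 in CRES-1, 5.95, 6.04 and 5.53 in CRES-3, 6.08, 6.13 and 6.17 in RiPS1, 6.67, 5.995 and 6.94 in RiPS2, and 6.72, 6.23 and 5.89 in RiPS3. The groups overlapped only because fibroblast array A was low and CRES-1 arrays A and B were high. LAMA4 fell by 2.43 in the mean of the pluripotent lines (SE 0.30, limma adjusted p = 1.2e-06), a 5.38-fold lower level. The difference was -3.08 without fibroblast array A and -1.97 without fibroblast array B, and it was called in both cases.

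The remaining laminin chains that were called were the beta chain LAMB2 and LAMC1, the gamma chain found in most laminins. LAMB2 read 8.68, 8.95 and 8.83 in the fibroblasts and from 6.86 to 7.87 in the pluripotent arrays, with a median of 7.39. LAMC1 read 10.87, 12.01 and 11.43 in the fibroblasts and from 9.80 to 10.54 in the pluripotent arrays, with a median of 10.17. Neither gene overlapped between the groups. LAMB2 fell by 1.45 (SE 0.13, limma adjusted p = 1.3e-08, 2.73-fold) and LAMC1 fell by 1.29 (SE 0.15, limma adjusted p = 5.4e-07, 2.45-fold). LAMC1 remained well above background in every pluripotent array.

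LAMB1, the beta chain that joins LAMA1 and LAMC1 in the classic embryonic laminin, was not called. Its fibroblast arrays read 8.77, 8.67 and 8.79, inside the pluripotent range of 7.62 to 9.38. The difference was -0.33 (95% interval -0.78 to 0.11, limma adjusted p = 0.165), and its other probe set gave -0.46. LAMA2, the alpha chain of muscle laminin, was between 4.67 and 6.28 on all arrays, with a difference of -0.42. LAMA3, the alpha chain of epithelial anchoring laminin, lay between 4.76 and 5.40 with a difference of -0.23. LAMB4 lay between 4.26 and 5.40, and LAMC3 between 5.05 and 5.80. These 4 chains averaged under 6 in every line, so their differences, all under 2-fold, were read close to background.

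**Figure D2:**
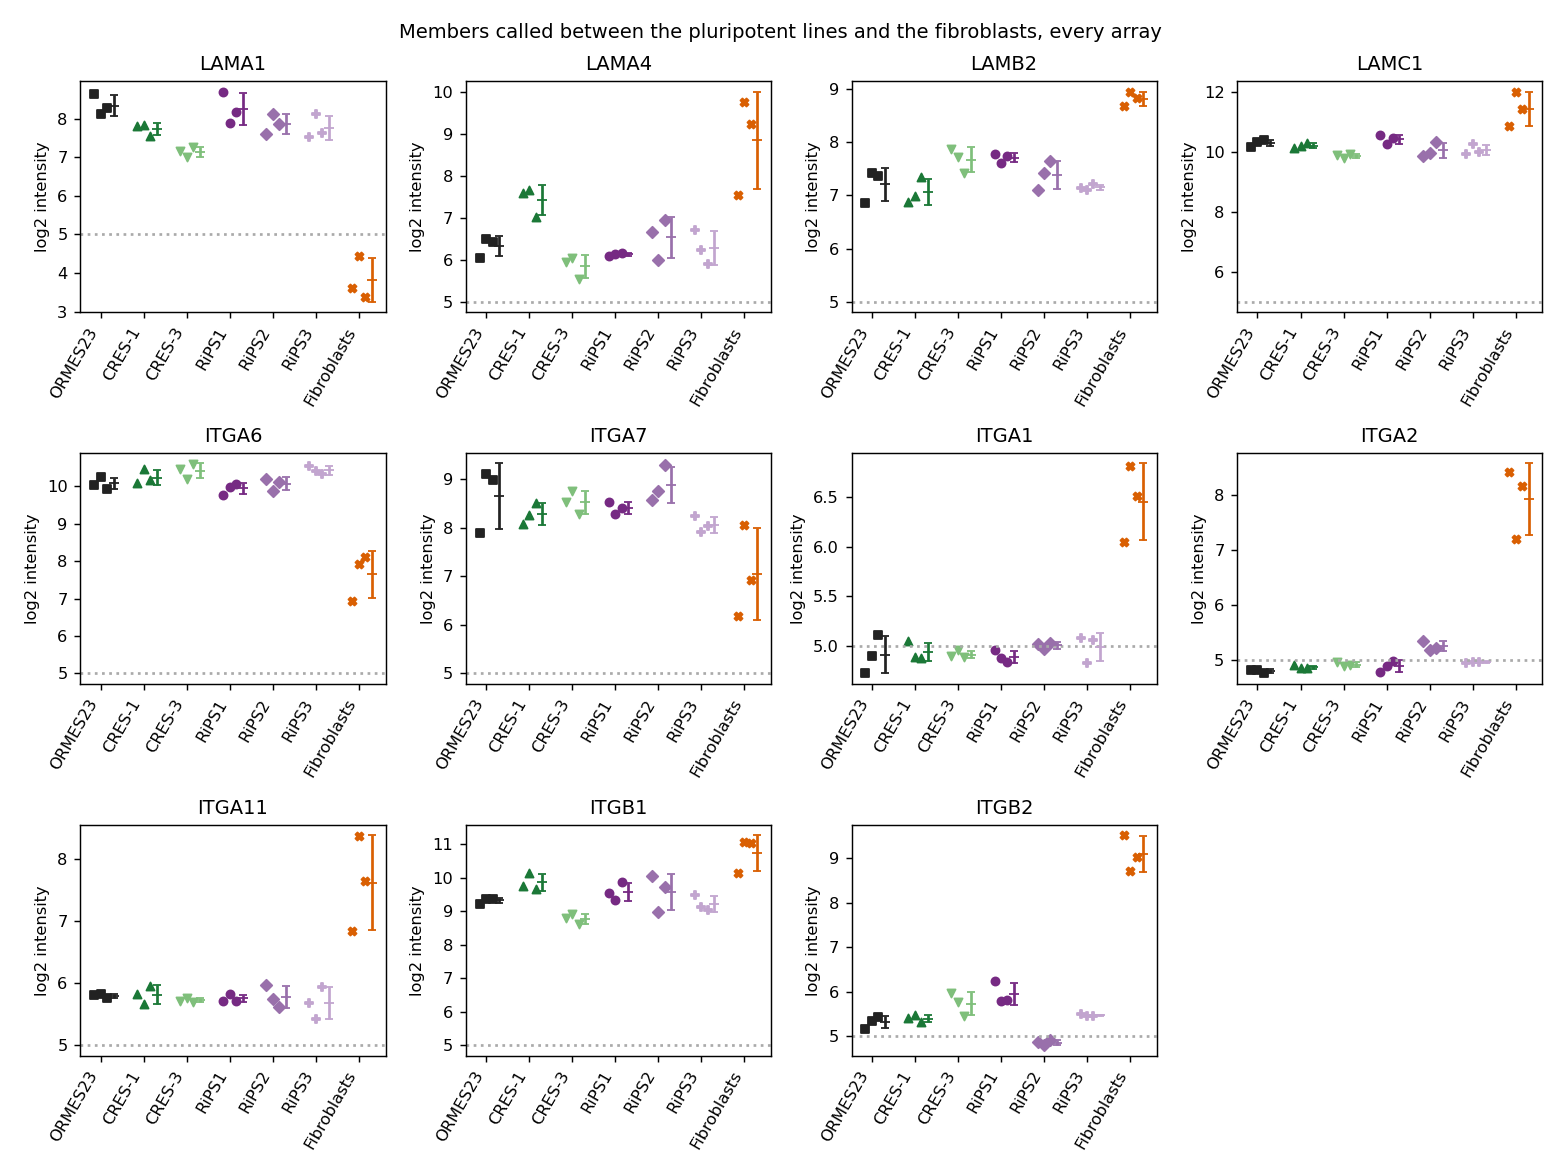
Log2 intensity (y axis) of the 11 called members on each of the 21 arrays, grouped by line (x axis); symbols are arrays A, B and C from left to right, the bar beside them is the mean with its SD (n = 3), and the dotted line marks log2 5. LAMA1 is between 6.997 and 8.70 in the pluripotent arrays and at most 4.45 in the fibroblasts, whereas ITGA2 and ITGA1 sit near 5 in the pluripotent arrays.

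Among the laminin receptors, ITGA6 rose. It read 10.05, 10.25 and 9.94 in ORMES23, 10.09, 10.46 and 10.16 in CRES-1, and 10.47, 10.20 and 10.58 in CRES-3. RiPS1 gave 9.78, 9.99 and 10.07, RiPS2 gave 10.20, 9.87 and 10.12, and RiPS3 gave 10.55, 10.41 and 10.33. The fibroblast arrays were at 6.93, 7.92 and 8.10, so the lowest pluripotent array was above the highest fibroblast array. The mean difference was 2.55 (SE 0.17, limma adjusted p = 2.1e-10), 5.84-fold higher in the pluripotent lines. The next brightest probe sets of ITGA6 gave differences of 2.37 and 1.97, and the dimmest gave 0.01.

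ITGA7, a laminin receptor chain best known from muscle, also rose, but its arrays overlapped. It read 7.89, 9.11 and 8.98 in ORMES23, 8.07, 8.27 and 8.52 in CRES-1, 8.53, 8.76 and 8.29 in CRES-3, 8.53, 8.28 and 8.41 in RiPS1, 8.58, 8.76 and 9.30 in RiPS2, and 8.24, 7.91 and 8.05 in RiPS3. Fibroblast array B, at 8.06, lay inside that range, while arrays A and C were at 6.18 and 6.93. The difference was 1.41 (SE 0.28, limma adjusted p = 1.8e-04, 2.67-fold). Without fibroblast array A it was 0.97 and no longer 2-fold, and the other probe sets gave 0.82 and -0.26. Smooth muscle markers moved with ITGA7 on some arrays. Of 4 listed markers, TAGLN, MYH11 and CNN1 had a named probe set and were tested, and none was called in the mean of the pluripotent lines. Their summed log2 level was 28.3 to 32.2 in ORMES23, 30.7 to 31.8 in CRES-1, 29.9 to 30.3 in CRES-3, 30.3 to 31.9 in RiPS1, 29.8 to 31.8 in RiPS2, 29.1 to 30.1 in RiPS3 and 29.7 to 34.5 in the fibroblasts. Their mean was 9.90, 11.49 and 11.06 on fibroblast arrays A, B and C and 9.44, 10.70 and 10.74 on those of ORMES23. Array A was also the lowest for ITGA7 in both groups, which were singled out after their values were seen. In CRES-1 the mean was 10.27, 10.24 and 10.61, and in CRES-3 9.96, 10.09 and 10.02. RiPS1 gave 10.44, 10.09 and 10.64, RiPS2 gave 10.58, 9.94 and 10.61, and RiPS3 gave 10.03, 9.69 and 9.76. The array order matched that of ITGA7 in RiPS3, but in RiPS2 array B was lowest for the markers and not for ITGA7. Between groups, the fibroblasts had the highest marker mean, 10.8, and the lowest ITGA7 mean, 7.06. The part of smooth muscle cells in the ITGA7 level was not tested.

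ITGA3, the remaining laminin receptor chain, was lower in the pluripotent lines by less than the 2-fold limit. The fibroblasts read 7.30, 7.12 and 6.82, and the pluripotent arrays ran from 5.36 to 6.74, so the groups did not overlap. The difference was -0.89 (SE 0.14, limma adjusted p = 2.3e-05). ITGB4, which pairs with ITGA6 in the hemidesmosomes of epithelia, stayed between 5.17 and 6.20 with a difference of 0.13 (95% interval -0.14 to 0.39).

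The collagen receptor chains among the members, ITGA1, ITGA2 and ITGA11, all fell. ITGA2 read 8.41, 7.19 and 8.15 in the fibroblasts and between 4.77 and 5.36 in the pluripotent arrays, with a median of 4.91. ITGA1 read 6.04, 6.81 and 6.51 against a pluripotent range of 4.73 to 5.11 and a median of 4.93. ITGA11, a fibroblast receptor for fibrillar collagen, read 6.83, 8.36 and 7.65 against 5.42 to 5.97, with a median of 5.75. None of these genes overlapped between the groups, and the pluripotent levels of ITGA1 and ITGA2 were near background. ITGA2 fell by 2.96 (SE 0.15, limma adjusted p = 5.6e-12) and was at least 7.56-fold lower. ITGA1 fell by 1.51 (SE 0.11, limma adjusted p = 1.1e-09), at least 2.74-fold. ITGA11 fell by 1.86 (SE 0.19, limma adjusted p = 6.8e-08), 3.62-fold. ITGA1 and ITGA2 are close neighbours on chromosome 6, with 1 protein-coding gene between them in the annotation.

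ITGB1, the beta chain shared by the laminin and collagen receptors, fell by 1.35 (SE 0.20, limma adjusted p = 7.4e-06, 2.56-fold). Its fibroblast arrays read 10.13, 11.07 and 11.02. The pluripotent arrays read 9.22, 9.38 and 9.37 in ORMES23, 9.76, 10.14 and 9.68 in CRES-1, 8.79, 8.92 and 8.61 in CRES-3, 9.53, 9.32 and 9.88 in RiPS1, 10.05, 8.98 and 9.72 in RiPS2, and 9.50, 9.13 and 9.04 in RiPS3. Fibroblast array A and CRES-1 array B met at 10.13 and 10.14, and the other arrays of the groups were apart.

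ITGB2, the beta chain of the leukocyte integrins, fell on its brightest probe set. It read 9.52, 8.72 and 9.03 in the fibroblasts. The pluripotent arrays read 5.17, 5.34 and 5.44 in ORMES23, 5.40, 5.47 and 5.32 in CRES-1, 5.98, 5.76 and 5.47 in CRES-3, 6.24, 5.78 and 5.82 in RiPS1, 4.87, 4.80 and 4.91 in RiPS2, and 5.49, 5.46 and 5.45 in RiPS3. No pluripotent array came near the fibroblast arrays. The fall was 3.64 (SE 0.13, limma adjusted p = 5.8e-14), 12.4-fold. A second probe set of the gene gave -1.47, and the other 2 probe sets, both with group means under 5, gave -0.37 and -0.20. Of its alpha partners only ITGAM and ITGAD were among the members. They stayed near background in the fibroblasts, at 4.19 to 4.77 and 4.20 to 4.57. The other partners, ITGAL and ITGAX, had no probe set named for them alone and were not read. Of 3 blood markers with a named probe set, CD14 alone averaged 5 or more in any line, at 5.56 in the fibroblasts. The summed log2 level of the 3 markers was 12.3 to 13.1 in the fibroblast arrays and 10.7 to 12.02 in the pluripotent arrays. The part of blood cells in the ITGB2 level was not tested.

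ITGB1 is given above. Of the other member chains of receptors for RGD-bearing ligands, none was called on its brightest probe set in the mean of the pluripotent lines. ITGB5, the vitronectin receptor chain, read 11.46, 11.73 and 11.74 in the fibroblasts and 10.08 to 11.22 in the pluripotent arrays. The groups did not overlap, and the difference of -0.95 (SE 0.15, limma adjusted p = 1.9e-05) was just under 2-fold. ITGAV, its alpha partner, read 7.43, 7.04 and 7.29 against 6.30 to 7.40, a difference of -0.50 (SE 0.15, limma adjusted p = 0.0074). ITGB3, known from platelets and bone-resorbing cells, differed by -0.22, and its platelet partner ITGA2B by -0.33. ITGB6, an epithelial chain, differed by -0.04. ITGB8, whose receptor with ITGAV activates TGF-beta, scattered between 2.66 and 6.34 over all arrays, with array-to-array SDs up to 1.72 within a line, and its difference was -1.21 (95% interval -2.58 to 0.16, limma adjusted p = 0.106).

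ITGAE, the alpha chain of the receptor for E-cadherin on lymphocytes, read 10.27, 10.60 and 10.36 in the fibroblasts and 9.22 to 9.94 in the pluripotent arrays. These did not overlap, and the difference of -0.81 (SE 0.11, limma adjusted p = 5.5e-06) was under 2-fold. Its beta partner ITGB7 lay between 4.70 and 5.53 on all arrays, with a difference of -0.17. ITGAM differed by 0.41 and LAMC3 by 0.28. In all, 21 members passed the adjusted p, of which 10 differed by less than 2-fold, and 22 of the 28 were lower in the pluripotent lines whether called or not. Over all genes, 8143 of 11143 had an unadjusted limma p under 0.05 in this comparison, and the median difference was 0.03. The shares past the adjusted p and lower were not counted over all genes, so these counts describe the members alone.

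ITGA8, a receptor chain for fibronectin and nephronectin, differed between its probe sets in size and in call. The brighter probe set by the mean over all arrays read 5.61, 6.23 and 5.43 in the fibroblasts and 5.27 to 5.72 in the pluripotent arrays, and its difference of -0.23 (limma adjusted p = 0.113) was not called. The other probe set read 8.39, 10.22 and 9.31 in the fibroblasts and 3.19 to 3.76 in the pluripotent arrays. With the most variable probe set of each gene in place of the brightest, ITGA8 fell by 5.85 (SE 0.22, limma adjusted p = 7.3e-14), a level at least 19.8-fold lower, the largest difference of any tested member under that choice. That probe set was above 5 on the fibroblast arrays alone, so it could enter the test only because it was high there, and it was singled out after its values were seen. For ITGA11 the most variable probe set also gave a larger fall, of 4.12 (SE 0.21, limma adjusted p = 7.5e-12), against 1.86 on the brightest. Of the 29 members, 19 had several probe sets, up to 8 for ITGB3, and for 10 the most variable was not the brightest. With the most variable probe sets 24 members could be tested and 11 were called, 10 of them the same genes in the same direction.

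**Figure D3:**
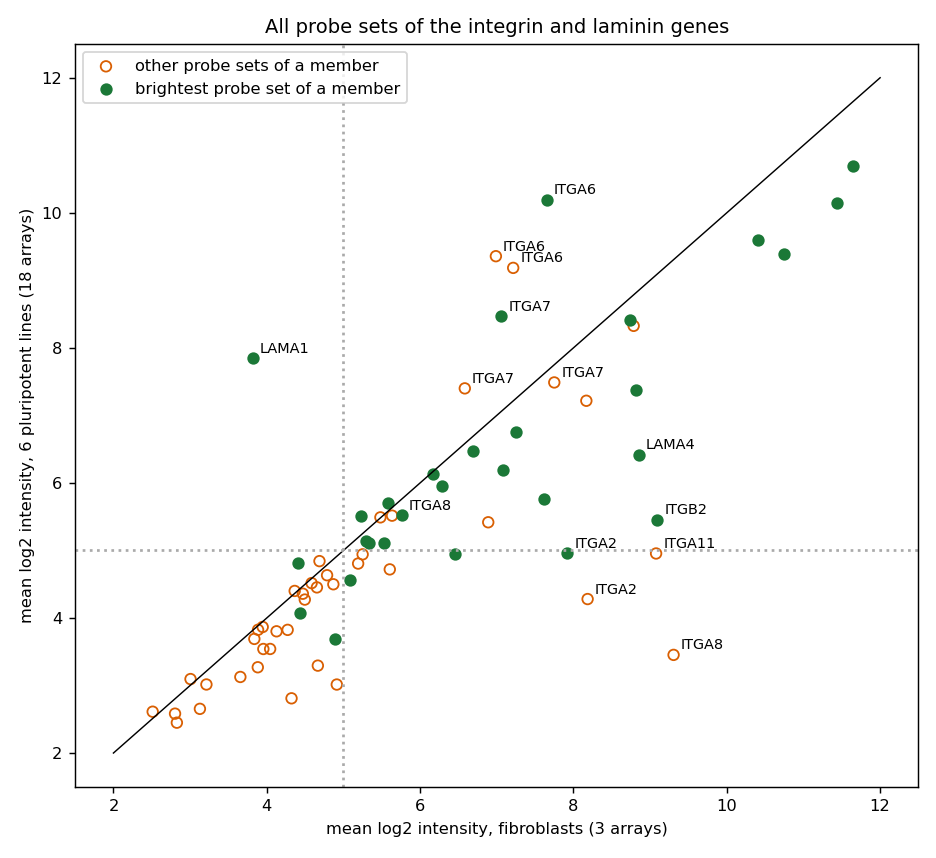
Mean log2 intensity of each of the 70 member probe sets in the fibroblasts (x axis) and in the 6 pluripotent lines (y axis); filled circles are the brightest probe set of a member, open circles its other probe sets, the diagonal is equal level and dotted lines mark log2 5. The second ITGA8 probe set is at 9.31 in the fibroblasts and 3.45 in the pluripotent lines, far from the filled ITGA8 circle at 5.76 and 5.53.

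Line by line against the fibroblasts, the same 10 members were called in all 6 pluripotent lines: LAMA1, ITGA6 and ITGA7 rose, and LAMA4, LAMB2, LAMC1, ITGA1, ITGA2, ITGA11 and ITGB2 fell. These 6 comparisons share the fibroblast arrays and are not independent of each other. The share of all tested genes called in all 6 lines was not counted, so the 10 are not read as a result about the family. The count of called members was 13 in ORMES23 (32.6% of all genes), 10 in CRES-1 (30.6%) and 12 in CRES-3 (33.3%). It was 12 in RiPS1 (32.8%), 12 in RiPS2 (31.8%) and 12 in RiPS3 (32.5%), where the percentage is the share of all tested genes called in that line. Of the members called in some lines, ITGB1 fell in every line except CRES-1, where it differed by -0.88. ITGB5 fell by 1.15 in ORMES23, 1.13 in RiPS2 and 1.11 in RiPS3. ITGA3 fell by 1.11 in ORMES23 and 1.34 in RiPS1. ITGB8 was lower than the fibroblasts by 0.34 to 2.01 in the line means and was called in CRES-3, with a limma adjusted p of 0.047. The means of both groups were under 5 there, at 2.88 and 4.89, and 5 of the 6 fits that each left out an array of these lines no longer called it. Whether CRES-3 differed from the other lines in this was not tested. The other 14 tested members were called in no line on their brightest probe sets. ITGA8 was among them; with the most variable probe set, or with all probe sets of a gene averaged, it was called in all 6 lines. The average fell by 3.04 in the mean of the lines (SE 0.15, limma adjusted p = 4.8e-12).

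The size of the difference also ran over a range among the lines. LAMA1 was higher than the fibroblasts by 3.32 in CRES-3 and by 4.52 in ORMES23, the ends of its range. ITGA6 ran from 2.29 to 2.78, and ITGA7 from 1.01 in RiPS3 to 1.82 in RiPS2. LAMA4 ran from -3.01 in CRES-3 to -1.43 in CRES-1. ITGB2 ran from -4.23 in RiPS2 to -3.14 in RiPS1, and ITGA11 only from -1.93 to -1.80. Fibroblast arrays moved some of these calls. ITGA7 was not called in CRES-1, RiPS1 or RiPS3 without fibroblast array A, nor in RiPS3 without fibroblast array C or RiPS3 array A. Without fibroblast array B, LAMC1 was not called in ORMES23, CRES-1 or RiPS1, LAMA4 not in CRES-1 and ITGB1 not in RiPS2. LAMC1 was also lost in RiPS1 without RiPS1 array B, ITGB1 in RiPS2 without RiPS2 array B, and ITGB5 in ORMES23 without ORMES23 array B.

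Whether the pluripotent lines differed among themselves was asked with an F test over the 6 lines, and 3 of 28 members (10.7%) were called, where 7.52% of all tested genes were. The members were ITGB2, LAMA2 and LAMA1, whose arrays are given above except for LAMA2. LAMA2 read 5.17, 5.47 and 5.26 in ORMES23, 5.24, 5.16 and 4.93 in CRES-1, 4.78, 4.68 and 4.81 in CRES-3, 6.28, 5.87 and 5.32 in RiPS1, 4.83, 4.67 and 4.71 in RiPS2, and 4.75, 5.20 and 4.75 in RiPS3. RiPS1 was the highest line for it, and CRES-3, RiPS2 and RiPS3 averaged under 5.

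For LAMA2 the highest line mean was 1.09 above the lowest (limma F-test adjusted p = 0.014). For ITGB2 the range was also 1.09 (limma F-test adjusted p = 0.0039), from 4.86 ± 0.06 (SD, n = 3) in RiPS2 to 5.95 ± 0.26 (SD, n = 3) in RiPS1. The lowest lines of both genes were under 5, so the higher lines were at least 1.77-fold above for LAMA2 and at least 1.93-fold for ITGB2. For LAMA1 the range was 1.20 (limma F-test adjusted p = 0.021), from 7.14 ± 0.14 (SD, n = 3) in CRES-3 to 8.34 ± 0.26 (SD, n = 3) in ORMES23, 2.30-fold. Without RiPS1 array A neither ITGB2 nor LAMA2 was called, and 1 member remained. LAMA2 was also lost without RiPS1 array B, and LAMA1 without CRES-3 array A or B.

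The order of LAMA1 by line mean was ORMES23, RiPS1, RiPS2, RiPS3, CRES-1 and CRES-3. CRES-3 lay below CRES-1 by more than the SD of either line, and the other neighbours in that order differed by less than the larger of their SDs. LAMB2 and ITGA3 passed the F test but ranged less than 2-fold, LAMB2 by 0.64 (limma F-test adjusted p = 0.031) and ITGA3 by 0.76 (limma F-test adjusted p = 0.043). ITGB1 ranged by 1.09, from 8.77 in CRES-3 to 9.86 in CRES-1, and LAMA4 by 1.58, from 5.84 in CRES-3 to 7.42 in CRES-1. Neither passed, with limma F-test adjusted p of 0.057 for ITGB1 and 0.082 for LAMA4. ITGA6 ranged by 0.48 and ITGA11 by 0.13, with limma F-test adjusted p of 0.35 and 0.998.

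**Figure D4:**
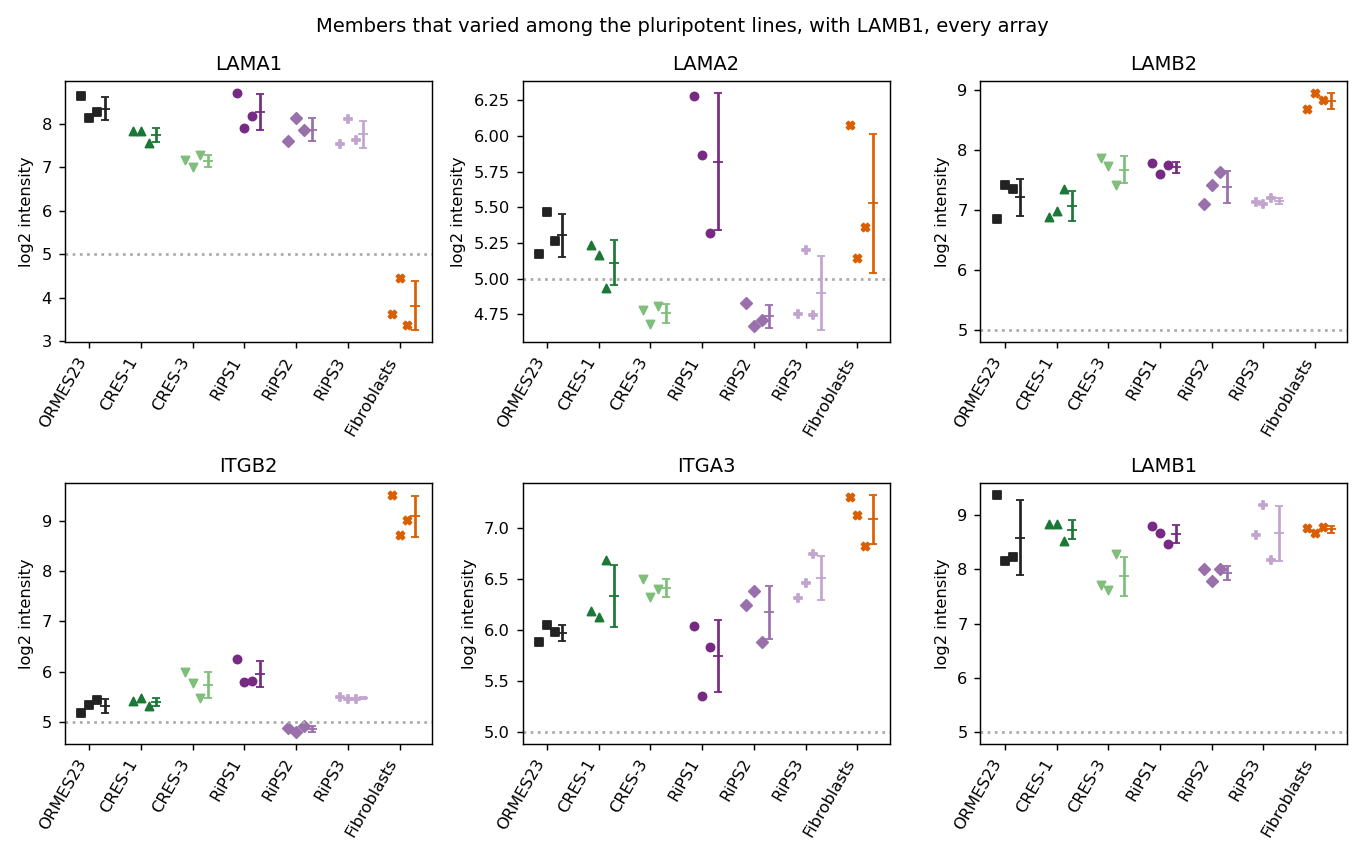
Log2 intensity (y axis) on each of the 21 arrays by line (x axis) for the 5 members past the adjusted p of the F test among the pluripotent lines, and for LAMB1; symbols are arrays A, B and C, bars are the mean with its SD (n = 3), and the dotted line marks log2 5. CRES-3 is lowest for LAMA1 at 7.14, RiPS1 is highest for LAMA2 at 5.82, and LAMB1 spreads from 7.62 to 9.38 over the pluripotent arrays.

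Markers of other cells moved with some of these levels. The 5 endoderm markers (SOX17, GATA6, GATA4, FOXA2 and AFP) were all tested. SOX17 and FOXA2 were called higher in the pluripotent mean and both averaged under 5 in the fibroblasts. GATA6, GATA4 and AFP were not called, with differences of -1.11, 0.33 and 0.57. GATA6 averaged 9.04 in the fibroblasts and 7.93 in the pluripotent lines. The summed log2 level of the 5 markers was 34.1 to 46.1 in ORMES23, 30.9 to 39.1 in CRES-1 and 30.3 to 37.5 in CRES-3. It was 34.7 to 39.5 in RiPS1, 31.1 to 32.6 in RiPS2, 33.1 to 40.1 in RiPS3 and 29.7 to 31.6 in the fibroblasts. The mean endoderm marker level was 9.22 on ORMES23 array A and 7.37 and 6.81 on arrays B and C, and LAMB1 read 9.38, 8.16 and 8.22 on the same arrays. In RiPS3 the mean marker level was 7.48, 8.02 and 6.63, and LAMB1 read 8.63, 9.18 and 8.18. These 2 lines were singled out after their values were seen. In the other lines the mean marker level was 7.82, 7.67 and 6.19 in CRES-1, 6.06, 6.54 and 7.50 in CRES-3, 7.91, 7.63 and 6.95 in RiPS1, and 6.49, 6.23 and 6.51 in RiPS2. LAMB1 there read 8.84, 8.83 and 8.52, then 7.71, 7.62 and 8.28, then 8.80, 8.68 and 8.47, then 8.01, 7.79 and 8.01. LAMA1 was highest on the array with the highest marker level in ORMES23, CRES-3, RiPS1 and RiPS3. In CRES-1 it was highest on array B and the marker level on array A, and in RiPS2 it was highest on array B, where the marker level was lowest. LAMB1 itself had a limma F-test adjusted p of 0.066. The part of endoderm-like cells in the LAMB1 and LAMA1 levels was not tested, and a larger share of such cells cannot be told apart from more RNA per cell in these arrays.

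Fibroblast markers also differed between the pluripotent lines. The summed log2 level of the 9 named markers was 56.2 to 58.5 in CRES-3, the lowest line, 61.3 to 65.8 in CRES-1 and 58.9 to 65.8 in RiPS2, against 89.3 to 90.4 in the fibroblasts. CRES-3 was also the lowest line, and CRES-1 the highest, for LAMA4 and ITGB1. Within CRES-1 the mean marker level was 7.31, 7.32 and 6.81 on arrays A, B and C, where LAMA4 read 7.58, 7.66 and 7.02. Within RiPS2 it was 7.10, 6.54 and 7.31, where LAMA4 read 6.67, 5.995 and 6.94 and ITGB1 read 10.05, 8.98 and 9.72. CRES-1 and RiPS2 were singled out after their values were seen. The lowest array for the markers was also the lowest for LAMA4 in ORMES23 (markers 6.68, 6.89 and 6.93, LAMA4 6.05, 6.49 and 6.43). The same held in RiPS3 (markers 6.79, 6.73 and 6.44, LAMA4 6.72, 6.23 and 5.89). It did not hold in CRES-3 (markers 6.24, 6.50 and 6.47, LAMA4 5.95, 6.04 and 5.53) or RiPS1 (markers 7.04, 6.83 and 7.01, LAMA4 6.08, 6.13 and 6.17). Nor did it hold in the fibroblasts (markers 9.99, 9.92 and 10.04, LAMA4 7.54, 9.76 and 9.24). LUM, PRRX1 and FAP were under 5 in the mean of each pluripotent line. The part of fibroblast-like cells or feeder cells in the LAMA4 and ITGB1 levels was not tested.

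The study set the cloned and the induced lines against the line from in vitro fertilization and against each other. Against ORMES23, no member was called in CRES-1, where 0% of all genes were called. There 2 members had an unadjusted limma p under 0.05, as did 1270 of the 11143 genes tested. In CRES-3, 10 members had an unadjusted limma p under 0.05, as did 1886 of the 11143 genes tested. Of these members 1 was called, where 0.996% of all genes were. This was LAMA1, which fell by 1.20 (SE 0.25, 95% interval -1.73 to -0.67, limma adjusted p = 0.015, 2.30-fold). The 3 CRES-3 arrays, at 6.997 to 7.27, were all below the ORMES23 arrays, at 8.13 to 8.63. The call was lost without ORMES23 array C, CRES-3 array A or CRES-3 array B, with differences of -1.24, -1.21 and -1.13 and limma adjusted p of 0.054, 0.059 and 0.085. Averaging all probe sets of a gene also ended it, at -0.77.

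No member was called in RiPS1 against ORMES23 (2.4% of all genes called), in RiPS2 (0.458%) or in RiPS3 (0.763%). The members with an unadjusted limma p under 0.05 numbered 4, 4 and 3, where 2315, 1327 and 1627 of the 11143 genes tested had one. In RiPS1, ITGB2 passed the adjusted p at 0.63 above ORMES23 (95% interval 0.27 to 1.00, limma adjusted p = 0.030) but stayed under 2-fold. The intervals of these comparisons were wide for some members: LAMA4 differed between CRES-1 and ORMES23 by 1.10 (95% interval 0.26 to 1.94, limma adjusted p = 0.32), which leaves room for a difference of more than 2-fold. For LAMA1, RiPS1 differed from ORMES23 by -0.09 (95% interval -0.62 to 0.45), RiPS2 by -0.48 (95% interval -1.01 to 0.05) and RiPS3 by -0.59 (95% interval -1.12 to -0.06).

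Between a cloned and an induced line of the same sex, no member was called. In the male pair, CRES-1 against RiPS1, 2.14% of all genes were called. There 6 members had an unadjusted limma p under 0.05, as did 2449 of the 11143 genes tested. LAMA4 was higher in CRES-1 by 1.29 (SE 0.40, 95% interval 0.45 to 2.13, limma adjusted p = 0.060). With only the 6 arrays of these lines in the fit LAMA4 was called (limma adjusted p = 0.0095). LAMB2 passed the adjusted p in this pair at -0.64 (SE 0.17, limma adjusted p = 0.027), under 2-fold. In the female pair, CRES-3 against RiPS3, 0.0359% of all genes were called. There 4 members had an unadjusted limma p under 0.05, as did 881 of the 11143 genes tested. The smallest limma adjusted p in that pair was 0.33, for LAMB2, which was higher in CRES-3 by 0.53 (95% interval 0.17 to 0.88).

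LAMB2 therefore differed in opposite directions in the pairs, and the difference between the pairs was tested directly. It was -1.17 (SE 0.24, 95% interval -1.67 to -0.67, limma adjusted p = 0.0097), the only member called in this interaction, where 2.89% of all genes were. LAMB2 read 6.88, 6.98 and 7.35 in CRES-1 and 7.78, 7.61 and 7.75 in RiPS1. In the female pair it read 7.87, 7.73 and 7.43 in CRES-3 and 7.13, 7.11 and 7.21 in RiPS3. The arrays of neither pair overlapped, CRES-1 being the lower line in the first and CRES-3 the higher in the second. Each of the 12 fits that left out an array of these lines called LAMB2 again, with differences from -1.31 to -1.07. The pairs differ in sex and in the donor stage of the induced line, fetal for RiPS1 and adult for RiPS3, and each line is a single derivation, so these cannot be told apart here. The series text gives the cloned and induced lines a shared fibroblast origin, whereas the labels name no donor for the CRES lines.

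Other genes of the same pathway were taken from lists of integrin adaptors, basement membrane partners and other integrin ligands. Of 24 tested adaptors, which link integrin tails to actin, 2 rose and 10 fell in the mean of the pluripotent lines against the fibroblasts, where 17.7% of all tested genes rose and 14% fell. The median difference was -0.35, against 0.03 over all genes tested. The falls were led by PARVA, at -2.74, LIMS1, at -2.68, and LIMS2, at -2.05, which belong to the complex of ILK with parvin and PINCH. ILK itself differed by -0.63 and was under 2-fold. FERMT1, the epithelial kindlin that activates integrins, rose by 2.27, at least 2.73-fold, while FERMT2 differed by -0.30. FERMT1 averaged 4.18 in the fibroblasts, so it entered the test only through the pluripotent lines. Talin split by gene: TLN1 fell by 1.68 and TLN2 rose by 1.08.

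Of 15 tested basement membrane partners, 7 rose and 5 fell, against the same 17.7% and 14% of all genes, with a median difference of -0.0041 against 0.03. FRAS1, a basement membrane protein of embryonic epithelia, rose by 7.12, at least 46.5-fold. COL4A5 and COL4A6, collagen chains of specialised basement membranes, rose by 4.65, at least 22.3-fold, and 4.57, at least 9.07-fold. FRAS1, COL4A5 and COL4A6 averaged 3.41, 4.82 and 3.62 in the fibroblasts, so they entered the test only through the pluripotent lines. The same holds for FREM2 and SDC2, which also rose and averaged 3.67 and 4.12 in the fibroblasts. The count of 7 that rose includes these genes and is not read as a result about the list. NID1, which bridges the laminin gamma chain LAMC1 and collagen, fell by 3.58, 11.9-fold. HSPG2, the basement membrane proteoglycan perlecan, differed by -0.90 and was under 2-fold. Among the pluripotent lines NID1 ranged by 1.57 and COL4A6 by 1.04, both called in the F test.

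Of 15 tested other integrin ligands, 1 rose and 6 fell, against 17.7% and 14% of all genes, with a median difference of -0.30 against 0.03. SPP1, the RGD-bearing ligand osteopontin, rose by 8.35, 326-fold. TNC, tenascin of the connective tissue matrix, fell by 7.39, at least 152-fold. COL1A2 fell by 3.97 and COL1A1 by 2.96, the chains of the fibrillar collagen that ITGA2 and ITGA11 receptors bind. FN1, fibronectin, fell by 2.00, 3.99-fold, and EMILIN1 fell by 3.82. VTN, vitronectin, differed by -0.29. COL1A1 and COL1A2 are also on the fibroblast marker list.

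**Figure D5:**
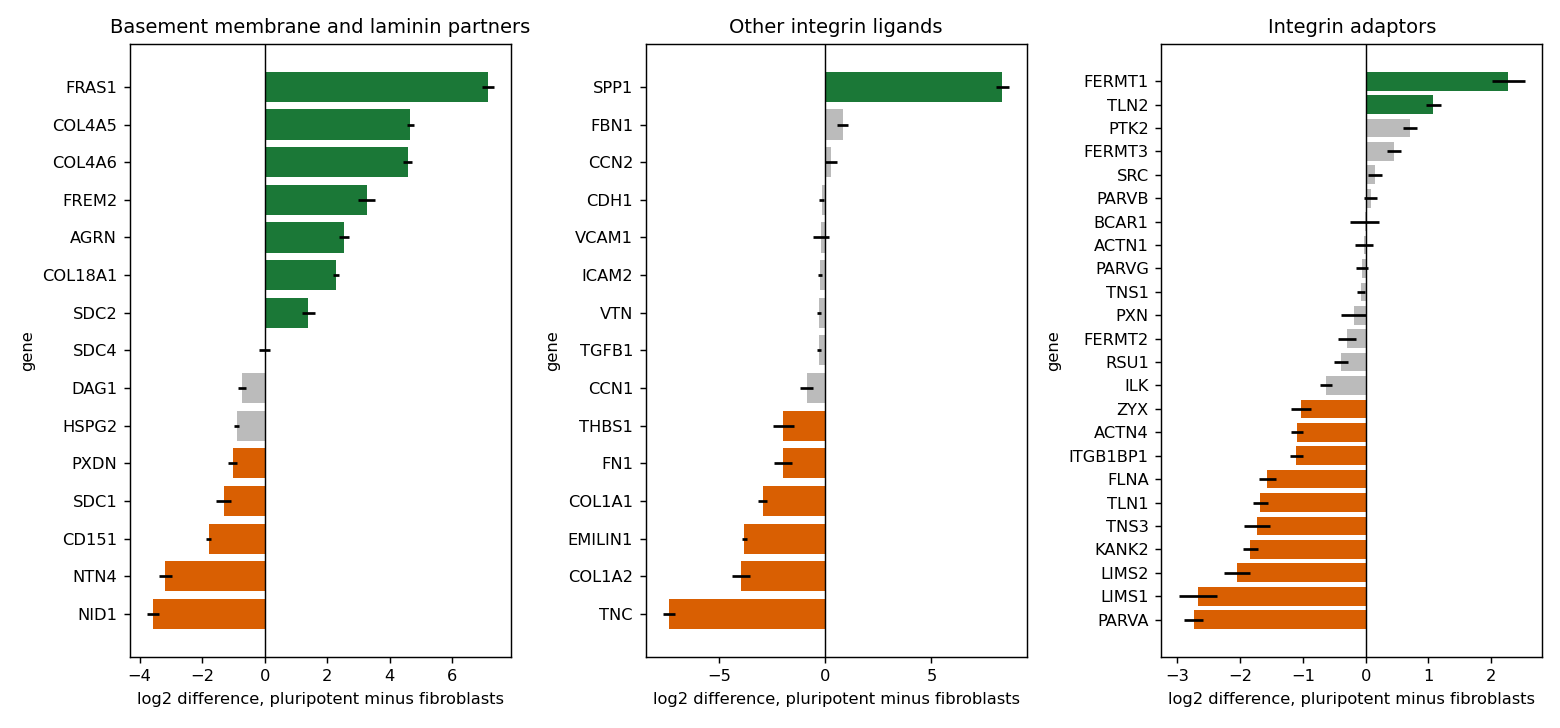
Log2 difference of the mean of the 6 pluripotent lines from the fibroblasts (x axis) for the tested genes of each list, with bars of 1 SE; green genes were called higher, orange genes lower and grey genes were not called. FRAS1 at 7.12 and SPP1 at 8.35 lie farthest to the right, and TNC at -7.39 lies farthest to the left.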

How the data were processed

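Messenger RNA of 21 samples was measured on Affymetrix rhesus arrays after one-cycle labelling, per the labels' protocols. Probe set intensities were deposited on a log2 scale after RMA, the robust multi-array average, run by the authors per the submitters' processing notes; its version was not given in the sources used here. RMA shares information among arrays, and precision is limited by the number of arrays. Of 52865 probe sets, 24969 carried 1 gene symbol in the platform annotation and were used; 361 with several and 27535 with none were left out. Genome order and family membership came from the RefSeq gene table of assembly T2T-MMU8v2.0.

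Each gene was read from its brightest probe set. The 11143 genes that reached 5 on 3 or more arrays were fitted in limma 3.58.1 (R 4.3.3), 1 mean a line, leaving 14 residual degrees of freedom, and moderated p-values were adjusted by Benjamini-Hochberg over these genes. Called genes had an adjusted p under 0.05 and at least a 2-fold difference. In the F test, the highest line mean had to lie at least 2-fold above the lowest. Where the dimmer mean was under 5, the fold was taken against 5 as a lower bound. Values on each array were planned for members called against the fibroblasts (up to the 12 largest differences) and for the 6 smallest F-test p values. For ITGA1, ITGA2, ITGA3, ITGA11 and LAMC1 the pluripotent arrays were summarized by their range instead. LAMB2 was given by array in the fibroblasts, CRES-1, CRES-3, RiPS1 and RiPS3 only. Of each pathway list, the rule named the 4 largest called differences. ILK, FERMT2, TLN1, TLN2, HSPG2, FREM2, SDC2, COL1A1, FN1 and VTN were added after their values were seen, as were the arrays of other members.

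The members, lists and comparisons were chosen with earlier results of these data known. The fit was tested on simulated data. Alternatives covered the filter, the probe set, the normalization, the array weights, a replicate block, the arrays in the fit and leaving out each array. Correlations of same-letter arrays' deviations from their line means ran from -0.41 to 0.44 over 63 pairs, so the letters did not pair the samples.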

Additional observations from a re-analysis of the deposited data

Results flagged for a closer look

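Among the 6 pluripotent lines, a line mean stood apart from the others for 2 of 28 tested members, at a critical value that chance passes in about 1 of 20 groups. ITGA2 had its highest line mean in RiPS2, at 5.25, where the nearest line was at 4.97 and the gap took 0.644 of the range, over Dixon's critical value for 6 values; all these levels are near background. ITGAE had its lowest line mean in CRES-1, at 9.43, where the nearest line was at 9.62 and the gap took 0.790 of the range, a range of only 0.24.

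LAMB2 differed between the sexes' pairs of cloned and induced lines, by -1.17 in limma's interaction term (CRES-1 minus RiPS1 against CRES-3 minus RiPS3).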

How the results depend on the processing

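Over all comparisons, 272 counts of called members were recomputed, and 256 stayed within 1.5 times their main value. Of 512 recomputed values of single members, 494 kept their direction and side of the threshold, 13 lost the call and 5 gained it; none reversed. Against the fibroblasts, leaving out an array gave 11 to 12 called members in the mean of the pluripotent lines. The counts among pluripotent lines were less stable, and the cause was not tested. Averaging all probe sets of a gene gave 0 members in the F test and 0 for CRES-3 against ORMES23. Array weights, whose estimation warned about convergence, gave 7 in the F test, 1 for CRES-1 against ORMES23, 2 for CRES-3 against ORMES23, 1 for CRES-1 against RiPS1 and 3 for the interaction. With only the arrays of the lines compared, the F test gave 5, CRES-1 against RiPS1 gave 1 (LAMA4) and the interaction gave 2. Normalizing the arrays by quantiles again gave 1 for CRES-1 against RiPS1, and the most variable probe set gave 1 for RiPS1 against ORMES23 (ITGB5, 1.09). Leaving out each array gave 1 to 4 members in the F test and 0 to 1 for CRES-3 against ORMES23.

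The replicate block (letters A, B and C) called 11 members against the fibroblasts and 3 in the F test, as without it, and changed no count of members in the other comparisons. It called 8 genes of all tested for CRES-1 against ORMES23, where 0 were called without it (1270 at an unadjusted limma p under 0.05). Of 21 arrays, 5 correlated best with an array of their own letter.

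Among all called genes, 30.4% were higher in the interaction; with arrays centred on their medians this was 21.8% and after quantile normalization 39.6%. Levels under log2 5 limit the folds of LAMA1, ITGA1 and ITGA2 to lower bounds.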
